A study of Homo sapiens with 45 samples.

Results

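The calpain system was examined in HCT116 cells, a line established from a human colorectal carcinoma, after siRNA against HNRNPK, the gene of the RNA- and DNA-binding protein heterogeneous nuclear ribonucleoprotein K. Of 28278 gene names in the count table, 9 belong to this set: the protease genes CAPN1, CAPN2, CAPN5, CAPN7, CAPN8, CAPN10 and CAPN15, the small subunit gene CAPNS1 and the inhibitor gene CAST. CAPN2 was chosen by its p-value, the smallest of all 13933 genes tested in the knockdown comparison, so its values are given as a description, with no test, in every comparison that uses those libraries. The other genes were added as its relatives and partners.

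Calpains are cytosolic cysteine proteases that calcium activates and that cut their substrates at a limited number of places. The conventional enzymes pair a large catalytic subunit, encoded by CAPN1 (µ-calpain) or CAPN2 (m-calpain), with the small regulatory subunit encoded by CAPNS1, and calpastatin, encoded by CAST, is their dedicated inhibitor. In epithelial and cancer cells they are known for cutting cytoskeletal and adhesion proteins during cell migration.

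All cells were plated onto nontargeting or HNRNPK siRNA at 25 nM and collected after 72 hours. RNA was sequenced in 4 control libraries named siNTC5 and 4 knockdown libraries named siHNRNPK. The TruSeq kit served for replicates 1 and 2 of both groups, the Ligation kit for replicates 3 and 4. Another control set, the 2 Scramble libraries (replicates 5 and 6), was made with the TruSeq kit from RNA purified by another method and was counted in separate tables. Nothing in the labels says that replicates came from separate cultures, so p-values measure the spread between these libraries, which may be technical. Lamin B1, H3K9me2, H3K9me3 and H3K27me3 were profiled by ChIP under control siRNA and, except for H3K9me2, under HNRNPK siRNA, and were read here as 7 lists of domains, each without a replicate.

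Total counts ran from 12107280 to 23633851 in the 8 libraries of the knockdown comparison and were 59209169 and 55007171 in the Scramble libraries. HNRNPK itself went from 884 ± 78.0 to 199 ± 45.3 CPM (counts brought to one library size by TMM; SD, n = 4 each), which was 22.4% of control. The colon epithelial markers EPCAM, CDH1, KRT8 and KRT18 were present in every library, while VIL1 stayed at or under 0.446 CPM. The summed epithelial markers were 2084 to 2259 CPM in siNTC5 and 4121 to 5032 CPM in siHNRNPK libraries. The fibroblast list was 43.5 to 72.3 and 74.7 to 122 CPM, nearly all of it COL1A1, with COL1A2 and DCN at or near 0. The leukocyte list (17.2 to 24.1 and 21.1 to 26.5 CPM) was nearly all CD68, with CD3E at 0, and the endothelial list stayed at or under 3.098 CPM. Whether these shifts bear on the calpain genes was not tested.

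CAPN2, the catalytic subunit of m-calpain, lies on chromosome 1 from 223701597 to 223776018 (GRCh38, RefSeq, as for the other genes), where it overlaps 3 uncharacterised loci. Its level was 366, 401, 411 and 430 CPM in siNTC5 replicates 1 to 4. It was 98.6, 92.4, 90.0 and 88.7 CPM in siHNRNPK replicates 1 to 4. The ranges were far apart, and all 4 knockdown libraries lay close together. The mean went from 402 ± 26.99 to 92.4 ± 4.40 CPM (SD, n = 4 each), or 23.0% of control, and the log2 fold change in edgeR was -2.12 (SE 0.05).

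By p-value CAPN2 stood first with 3.69e-19 and EGR1, an early-response transcription factor, second with 1.44e-18. The third was HERPUD1, a protein of the endoplasmic reticulum stress response, with 1.74e-18. Their log2 fold changes were -1.68 for EGR1 and 1.58 for HERPUD1, so the first place was decided by a small margin. By size, 109 of the 13933 genes (0.782%) had a lower log2 fold change than CAPN2. The first place held in 5 of 8 fits that left out 1 library, where the rank ran from 1 to 9. With the Scramble libraries added as controls CAPN2 ranked 59, while its log2 fold change stayed between -2.24 and -1.998 over all 19 alternative fits.

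**Figure D1:**
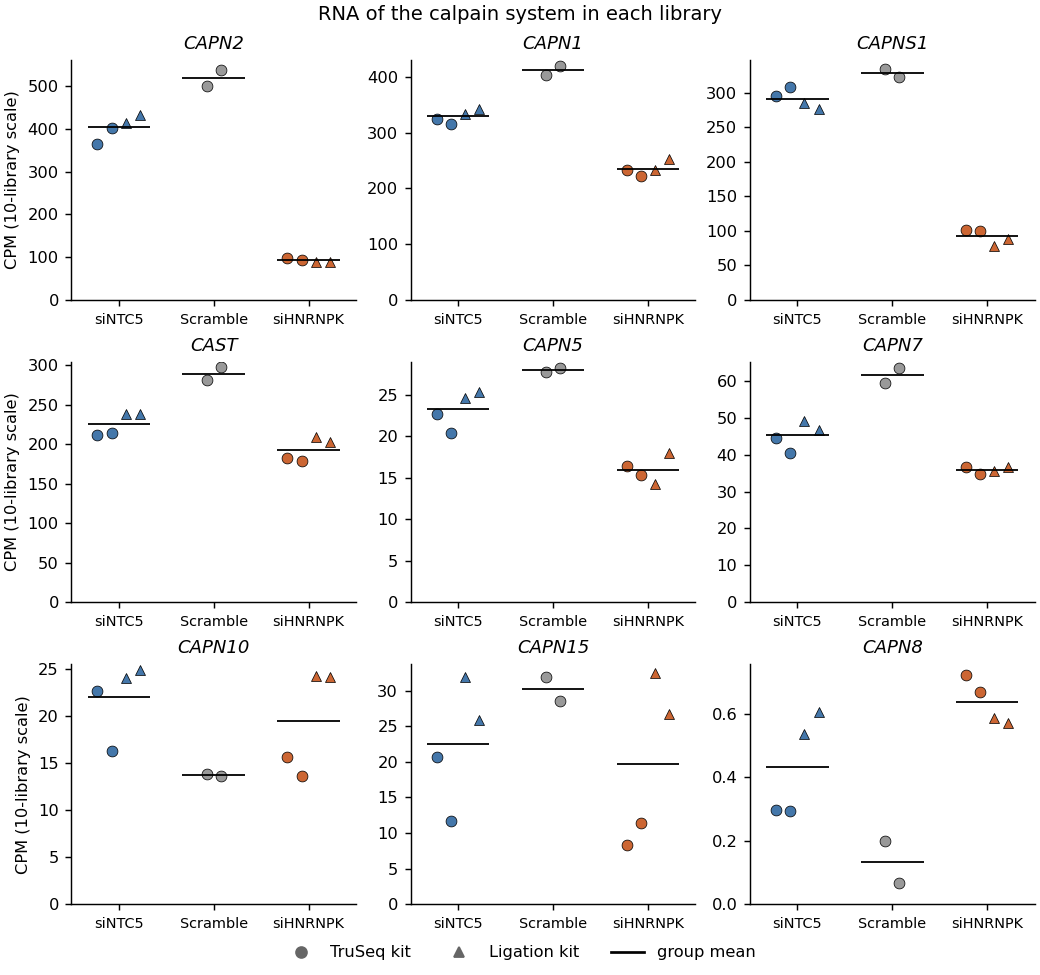
CPM (vertical axes, from 0, on the scale of all 10 libraries) of the 9 genes in each library, by group; circles are TruSeq and triangles Ligation libraries, and lines are group means. In the knockdown CAPN2 and CAPNS1 stand lowest against siNTC5, and CAPN1, CAST, CAPN5 and CAPN7 also lie below every siNTC5 library. CAPN10 and CAPN15 overlap between siNTC5 and siHNRNPK, and in both groups their Ligation libraries lie above their TruSeq libraries. The Scramble libraries, also TruSeq, had CAPN15 at 31.9 and 28.5 CPM.

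CAPN2 and CAPNS1 are the genes of this set whose RNA stood lowest against control, so the bases before their starts are shown. RefSeq (GRCh38.p14) promoter windows matched 8 of the 9 genes by symbol, all but CAPN5, with 16 starts. For CAPN2 the table holds a start at the first base of the gene and another within its body, and for CAPNS1 likewise. Both windows of CAPN2 and the first of CAPNS1 are printed. They hold the 250 bases before each start on the plus strand, at chr1:223701347-223701596, chr1:223712289-223712538 and chr19:36139816-36140065, and capitals mark the motif GGGCGG, the core of a GC box.
CAPN2, first start: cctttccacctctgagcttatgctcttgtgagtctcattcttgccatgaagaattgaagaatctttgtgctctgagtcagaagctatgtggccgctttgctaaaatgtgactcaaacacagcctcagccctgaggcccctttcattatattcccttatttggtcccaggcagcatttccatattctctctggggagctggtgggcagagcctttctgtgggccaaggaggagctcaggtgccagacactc
CAPN2, inner start: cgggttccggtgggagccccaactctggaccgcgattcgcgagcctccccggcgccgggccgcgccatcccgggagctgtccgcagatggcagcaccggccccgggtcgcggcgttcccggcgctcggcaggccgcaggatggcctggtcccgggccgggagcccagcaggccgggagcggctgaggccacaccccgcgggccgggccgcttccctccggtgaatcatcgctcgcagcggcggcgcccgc
CAPNS1, first start: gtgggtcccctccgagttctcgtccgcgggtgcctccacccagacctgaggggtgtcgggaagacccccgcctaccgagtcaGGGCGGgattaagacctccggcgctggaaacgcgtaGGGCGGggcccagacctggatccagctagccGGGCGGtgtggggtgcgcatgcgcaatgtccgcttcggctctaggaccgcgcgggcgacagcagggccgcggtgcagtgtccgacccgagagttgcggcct

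The CAPN2 windows differed in composition. The first had a GC content of 50% with 1 CpG, and the inner one 78.8% with 37, against medians of 58% and 11 over 35116 RefSeq promoters. The printed CAPNS1 window had 70.4% and 28 CpG and held GGGCGG or its reverse complement 3 times. The window of the inner CAPNS1 start, at chr19:36140740-36140989, had 62.8% and 11 CpG, with 1 match to GGGCGG and 2 to CCCTCCC on either strand. GGGCGG or its reverse complement CCGCCC was present in 42.6% of all promoters and in 11 of the 16 starts of the set, but in neither CAPN2 window. CCCTCCC (with GGGAGGG), a C-rich run, was present in 24.7% of all promoters and 6 of 16 starts, and CCAAT (with ATTGG) in 32% and 7 of 16. The CAPN2 windows held none of these letters on either strand, which says nothing of any factor.

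CAPNS1, the small subunit shared by both conventional calpains (chromosome 19, 36140066 to 36150353), was the next lowest against control. It was 296, 307, 283 and 274 CPM in siNTC5 replicates 1 to 4 and 102, 99.7, 78.1 and 89.3 CPM in siHNRNPK replicates 1 to 4. Each knockdown library lay below every control. The mean went from 290 ± 14.5 to 92.2 ± 10.9 CPM (SD, n = 4 each), or 31.8% of control, with a log2 difference of -1.66 (SE 0.05, adjusted p 7.51e-15, edgeR). CAPNS1 ranked 18 by p-value among all genes tested. Over the 19 alternative fits its rank ran from 2 to 80, and its log2 fold change lay between -1.74 and -1.58.

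CAPN1, the large subunit of µ-calpain (chromosome 11, 65181373 to 65212006, overlapping CAPN1-AS1), fell less. Its levels were 326, 316, 332 and 340 CPM in siNTC5 and 233, 222, 234 and 255 CPM in siHNRNPK libraries. The groups did not overlap, and the mean was 71.8% of control, lower by a log2 value of -0.48 (SE 0.04, adjusted p 8.10e-09, edgeR).

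CAST, the inhibitor calpastatin, changed least among the conventional system. Its RefSeq span on chromosome 5 (95961429 to 96774683) overlaps 14 other genes, including ERAP1 and ELL2, and the strand counted is not given in the sources used here. It was 212, 214, 238 and 236 CPM in siNTC5 and 183, 178, 209 and 204 CPM in siHNRNPK libraries. The highest knockdown library lay just under the lowest control, and within each group the Ligation libraries were the higher ones. The mean was 86.0% of control, and the log2 value -0.22 (SE 0.04, adjusted p 6.90e-05, edgeR).

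Ratios taken within each library do not depend on scaling between libraries. The CAPNS1 to CAPN1 ratio of counts changed by -1.18 on the log2 scale, from -0.18 ± 0.12 to -1.36 ± 0.22 (SD, n = 4 each). CAPNS1 to CAST changed by -1.44 and CAST to CAPN1 by 0.26. Each of these 3 ratios separated the groups fully, with a two-sided exact permutation p of 0.0286, the smallest that 4 against 4 libraries allow. The value was the same after Benjamini-Hochberg adjustment over the 3. CAST to CAPN1 follows from the other ratios, so the 3 are not independent tests. When labels were exchanged only within a kit, the two-sided exact permutation p was 0.0556 for each, the smallest that 36 arrangements allow, so that test cannot pass 0.05. Relative to CAPN2, as a description, the counts of CAST went up by 1.90 and those of CAPNS1 by 0.46. The RNA of the subunits and of the inhibitor thus shifted by unequal amounts in the same libraries.

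The remaining proteases of the set are calpains that lack the penta-EF-hand calcium-binding part of the conventional enzymes, apart from CAPN8. CAPN5 (chromosome 11, 77066971 to 77126155, overlapping OMP) was 22.8, 20.4, 24.4 and 25.2 CPM in siNTC5 and 16.5, 15.3, 14.2 and 18.1 CPM in siHNRNPK libraries. It fell in the knockdown without overlap, by -0.52 (SE 0.09, adjusted p 3.98e-05, edgeR). CAPN7 (chromosome 3, 15206246 to 15252916), whose protein binds components of the endosomal sorting machinery, was 44.7, 40.5, 49.0 and 46.5 against 36.7, 34.8, 35.7 and 37.0 CPM. Its groups were also apart, by -0.32 (SE 0.06, adjusted p 2.15e-04, edgeR).

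CAPN10 and CAPN15 overlapped between the groups and did not pass. CAPN10 (chromosome 2, 240586734 to 240599104) was 22.7, 16.2, 23.9 and 24.7 CPM in siNTC5 and 15.7, 13.6, 24.4 and 24.3 CPM in siHNRNPK libraries (log2 -0.19, SE 0.11, adjusted p 0.122, edgeR). CAPN15 (chromosome 16, 527712 to 554636, overlapping MIR5587, MIR3176 and a pair of uncharacterised loci), of the family of the fly gene small optic lobes, was 20.8, 11.7, 31.8 and 25.7 CPM against 8.37, 11.4, 32.6 and 26.9 CPM (log2 -0.27, SE 0.17, adjusted p 0.156, edgeR). For both genes, every Ligation library lay above every TruSeq library of its group. CAPN15 stood at 61.1% of control with the TruSeq kit and at 103% with the Ligation kit. TruSeq libraries alone gave CAPN15 a log2 fold change of -0.69 (adjusted p 0.0274, edgeR), and Ligation libraries alone 0.05 (0.689).

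Other choices also decided these calls. With no filter on low counts and all 8 libraries, both passed in edgeR, CAPN10 at -0.23 (adjusted p 0.0258) and CAPN15 at -0.30 (adjusted p 0.00225), and 7 members besides CAPN2 passed in place of 5. Without siNTC5 replicate 1, the estimates shrank to -0.06 for CAPN10 (adjusted p 0.537, edgeR) and -0.05 for CAPN15 (adjusted p 0.675, edgeR). Without siNTC5 replicate 2, CAPN10 had a log2 fold change of -0.25 (adjusted p 0.0424, edgeR). CAPN15 passed in edgeR without siNTC5 replicate 4 (-0.42, adjusted p 0.0314) and without siHNRNPK replicate 3 (-0.42, adjusted p 0.0427).

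CAPN8 (chromosome 1, 223541616 to 223665701), known from the mucus cells of the stomach, had 5 to 11 counts in each of the 8 libraries, too few for the filter on low counts. Its level was between 0.292 and 0.602 CPM in siNTC5 and between 0.577 and 0.725 CPM in siHNRNPK libraries. The mean was 237% of control with the TruSeq kit and 103% with the Ligation kit, on these few counts. With no filter on low counts and all 8 libraries it did not pass (log2 0.58, SE 0.48, adjusted p 0.336, edgeR).

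In all, 8 of the 9 genes could be tested, and besides CAPN2, 5 of 7 passed at an adjusted p under 0.05 in edgeR, all 5 lower. Over all genes tested, 71.5% passed, and 36.1% passed as lower, so a passing member is the usual case here. Likewise 5 of these 7 had CPM ranges that did not overlap and were lower, where 28% of all genes did (56.5% in either direction). The estimates of these 7 were all negative, and their median log2 fold change was -0.32 against -0.004 for all genes.

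**Figure D2:**
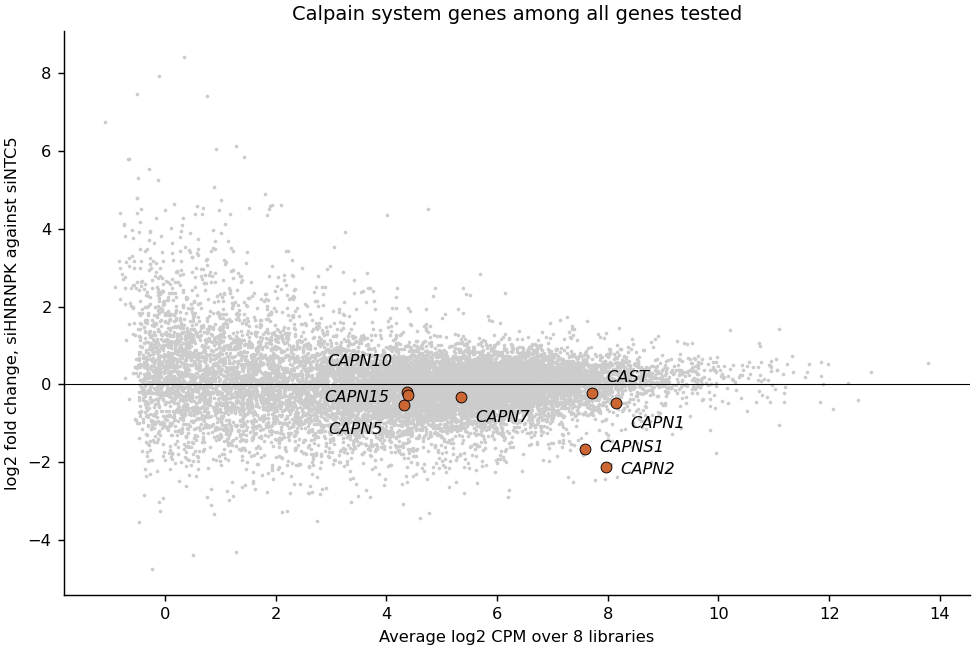
Average log2 CPM over 8 libraries (horizontal) against log2 fold change of siHNRNPK against siNTC5 (vertical) for all 13933 genes tested (grey) and the 8 calpain system genes tested (orange). CAPN2 at -2.12 and CAPNS1 at -1.66 are the lowest of the set, and the other 6 genes lie between -0.52 and -0.19. Of all genes tested, 0.782% lie lower than CAPN2 and 2.21% lower than CAPNS1.

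The kit interaction asked whether the knockdown effect differed between Ligation and TruSeq libraries. It rests on the libraries that chose CAPN2, whose values are again a description. In edgeR 18 of 13933 genes passed (0.129%), or 1639 without adjustment, and none of the 7 members tested besides CAPN2 passed, with CAPN15 alone at an unadjusted p under 0.05 (p 0.0204, edgeR). The DESeq2 Wald test gave an adjusted p for 4 of the 7, none of which passed, and gave none for CAPN5, CAPN10 and CAPN15. No member besides CAPN2 had an unadjusted p under 0.05 there. CAPN2 stood at 24.9% of control in TruSeq and 21.2% in Ligation libraries, an interaction of -0.23 (log2, SE 0.09). CAPN15 had the largest estimate, 0.74 (SE 0.29, adjusted p 0.327, edgeR), and CAPN10 followed with 0.39 (adjusted p 0.447, edgeR). CAPNS1 had -0.15 (adjusted p 0.518, edgeR), at 33.4% of control in TruSeq and 30.0% in Ligation libraries.

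The 2 TruSeq controls moved these estimates in opposite directions. Without siNTC5 replicate 2, the TruSeq control with the lower CAPN10 and CAPN15 levels, CAPN10 (0.61, adjusted p 0.0201) and CAPN15 (1.11, adjusted p 3.15e-05) passed in edgeR, and 598 genes passed in all. Without siNTC5 replicate 1, CAPN10 had 0.13 (adjusted p 0.783, edgeR) and CAPN15 0.29 (adjusted p 0.507, edgeR). Each of these fits leaves 1 TruSeq control, which is assumed to vary like the other libraries. On all 8 libraries with no filter on low counts, CAPN15 passed (0.73, adjusted p 0.00716, edgeR).

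**Figure D3:**
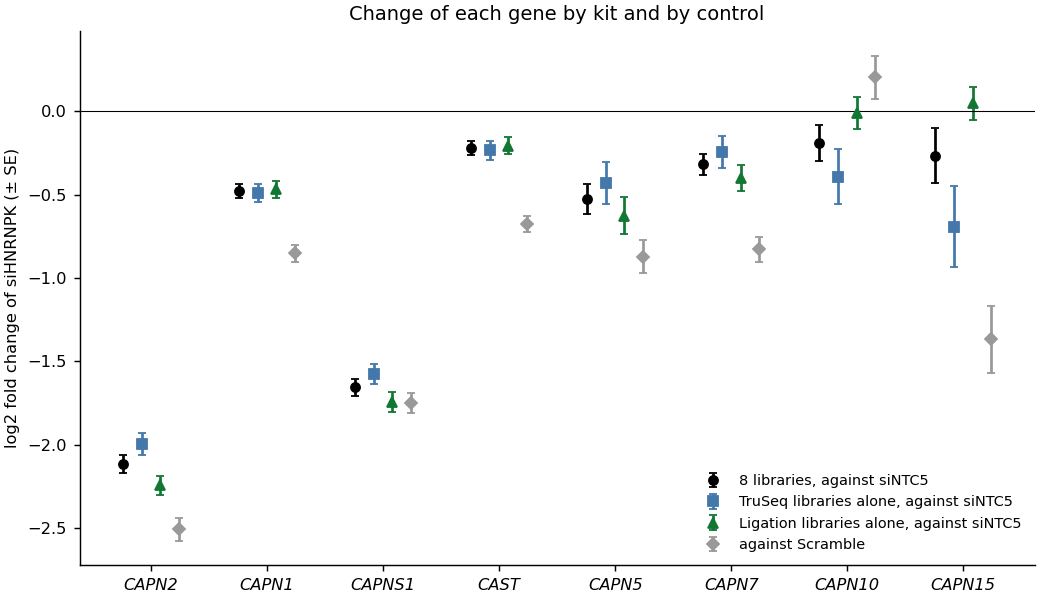
Log2 fold change of siHNRNPK (vertical, ± SE from edgeR) for the 8 genes tested, in all 8 libraries, in each kit alone and against Scramble. CAPN2, CAPN1, CAPNS1, CAST, CAPN5 and CAPN7 lie under 0 in each fit, and CAPN15 goes from -0.69 in TruSeq to 0.05 in Ligation libraries.

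The comparison of both nontargeting controls asked how far control levels themselves differ. It shares the siNTC5 libraries with the knockdown comparison, and the siRNA, the RNA purification and the counting of the Scramble libraries cannot be told apart. On the scale of all 10 libraries CAPN2 was 500 and 538 CPM in Scramble replicates 5 and 6, against 365 to 433 CPM in siNTC5 and 88.0 to 98.4 CPM in siHNRNPK. The order was therefore Scramble, siNTC5, siHNRNPK, with no overlap between neighbours. The difference of Scramble from siNTC5 was 0.38 (log2, SE 0.07), as a description, since the siNTC5 libraries took part in the choice of CAPN2. With unscaled library totals, which move the median of all genes from 0.04 to -0.20, it was 0.15 (SE 0.07).

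Besides CAPN2, 7 of 8 genes passed in edgeR between Scramble and siNTC5, where 69.3% of 14642 genes did, 37.5% as higher and 31.8% as lower. Higher in Scramble were CAPN1 (0.36), CAPN5 (0.34), CAPN7 (0.50), CAPN15 (1.10) and CAST (0.45). Lower were CAPN10 (-0.40) and CAPN8 (-1.44). The CPM ranges did not overlap for 7 of these 8 genes, all but CAPN15, where 69.7% of all genes did not. CAPN1 was 403 and 420 CPM and CAST 281 and 298 CPM in Scramble, each above every siNTC5 library. CAPNS1 was 335 and 323 CPM, with a difference of 0.09 (SE 0.06, adjusted p 0.204, edgeR), which turned to -0.05 (adjusted p 0.502) with upper-quartile normalisation and to -0.15 (adjusted p 0.0370) with unscaled totals. Over all genes called, 5495 were higher and 4651 lower in Scramble, and this balance turned to 4380 and 5770 with upper-quartile normalisation and to 3626 and 6700 with unscaled totals.

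The weakest of these calls depended on single choices. CAPN8 had 10 and 3 counts in the Scramble libraries, and its difference was -0.88 without Scramble replicate 6. Its adjusted p went from 0.0320 to 0.0602 without siNTC5 replicate 4 and to 0.0783 with no filter on low counts (edgeR). With the TruSeq siNTC5 libraries alone it was 0.197 (edgeR), and the DESeq2 Wald test gave an adjusted p of 0.0778. CAPN10 went from an adjusted p of 0.00882 to 0.103 without siNTC5 replicate 1 (edgeR). CAPN15 had a difference of 0.44 (adjusted p 0.408, edgeR) with no kit term, and CAPN5 one of 0.21 (adjusted p 0.0680, edgeR) with upper-quartile normalisation and 0.11 (adjusted p 0.336, edgeR) with unscaled totals.

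Against Scramble, the knockdown libraries had CAPN2 lower by a log2 fold change of -2.51 (SE 0.07), as a description. CAPNS1 had -1.75 (adjusted p 1.09e-14, edgeR), and the values were -0.85 for CAPN1, -0.87 for CAPN5, -0.83 for CAPN7, -0.67 for CAST and -1.37 for CAPN15. Besides CAPN2, 7 of 8 genes had an adjusted p under 0.05, CAPN8 among them, where 81.2% of all genes did. The 6 others were all lower, where 42.4% of all genes passed as lower. CAPN8 was higher (2.06, SE 0.56) on the few counts given above, which is a description and not a test. It had met the filter through siHNRNPK replicates 1 and 2, where it was highest (0.724 and 0.669 CPM). Of all genes, 38.8% passed as higher. CAPN10 did not pass (0.20, adjusted p 0.158, edgeR). CAPN10 passed in edgeR with upper-quartile normalisation (0.39, adjusted p 0.00964), with unscaled totals (0.41, adjusted p 0.00768), with a mean of at least 50 counts required (0.30, adjusted p 0.0471) and without siHNRNPK replicate 2 (0.31, adjusted p 0.0461). With no kit term CAPN15 no longer passed (-0.63, adjusted p 0.211, edgeR). Upper-quartile normalisation moved the median of all genes from -0.04 to 0.15 and gave CAPN2 -2.32.

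The genes whose levels followed CAPN2 most closely over the 8 libraries were VWDE, KREMEN1, ACSS2, SAMD5 and IPO8, with Pearson r of 0.9988, 0.9987, 0.9984, 0.9982 and 0.9979 in log2(CPM + 1). KREMEN1 encodes a receptor for Dickkopf proteins, ACSS2 a cytosolic acetyl-CoA synthetase and IPO8 a nuclear import receptor. Their log2 fold changes ran from -2.80 for KREMEN1 to -0.80 for VWDE. Such values describe 8 libraries in 2 treatments that share their kits, and 226 genes had an r over 0.99. CAPNS1 had an r of 0.9896 (place 245), CAPN1 0.9692, CAPN5 0.9128, CAPN7 0.9114 and CAST 0.7801. CAPN10 (0.2805) and CAPN15 (0.1948) did not track CAPN2 closely.

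Calcium is the activator of the conventional calpains, and genes of calcium entry, stores and extrusion were listed around them. Of 17 listed genes 15 were tested, and 12 fell, 1 rose and 2 did not pass, where 36.1% of all genes passed as lower and 35.5% as higher. Their median log2 fold change was -0.53. Over the 19 alternative fits the number lower ran from 10 to 13, and 1 was higher in each.

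ATP2A3, a calcium pump of the endoplasmic reticulum, was 29.4, 20.5, 32.5 and 32.9 CPM in siNTC5 and 6.46, 7.28, 9.02 and 10.7 CPM in siHNRNPK libraries. The log2 value was -1.79 (SE 0.11, adjusted p 1.06e-10, edgeR). ITPR2, a release channel of the same store, was 24.3, 25.3, 28.1 and 32.2 against 8.37, 6.54, 9.02 and 8.82 CPM (-1.74, SE 0.09). Both genes had groups that were well apart.

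STIM1, the sensor of store calcium, went from 42.9 ± 1.43 to 21.1 ± 1.21 CPM (SD, n = 4 each; log2 -1.02), and ORAI2, a channel subunit that STIM proteins open, from 17.8 ± 1.53 to 8.49 ± 1.04 CPM (log2 -1.06). The gene that rose, named after its value was seen, was ATP2A2, the widely expressed pump of the endoplasmic reticulum. It went from 623 ± 54.8 to 805 ± 25.3 CPM (log2 0.37, SE 0.04, adjusted p 1.73e-07, edgeR). ORAI1 and SLC8A1 had too few counts to test in these libraries, although ORAI1 was 21.7 and 23.9 CPM in the Scramble tables.

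Genes of widely reported calpain substrates moved both ways. Of 22 tested, 5 were higher, 11 lower and 6 did not pass, so 72.7% passed against 71.5% of all genes, with a median log2 fold change of -0.13. EGFR, the epidermal growth factor receptor, was 174, 167, 179 and 193 CPM in siNTC5 and 51.9, 41.9, 44.8 and 44.0 CPM in siHNRNPK libraries, which was -1.96 on the log2 scale (SE 0.06, adjusted p 1.44e-14, edgeR). NFKBIA, the inhibitor of NF-kappa-B, rose from 26.5 ± 1.49 to 90.0 ± 5.28 CPM (SD, n = 4 each; log2 1.76).

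RHOA, a GTPase of the actin cytoskeleton, went from 751 ± 20.5 to 513 ± 5.85 CPM (log2 -0.55), and VIM from 2.82 ± 0.53 to 0.883 ± 0.19 CPM (log2 -1.67), a low level in both groups. These are RNA levels, and cleavage of the proteins was not measured. With the Scramble libraries added as controls 11 of the 22 genes passed, 3 higher and 8 lower, and over all 19 alternative fits between 11 and 20 passed.

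**Figure D4:**
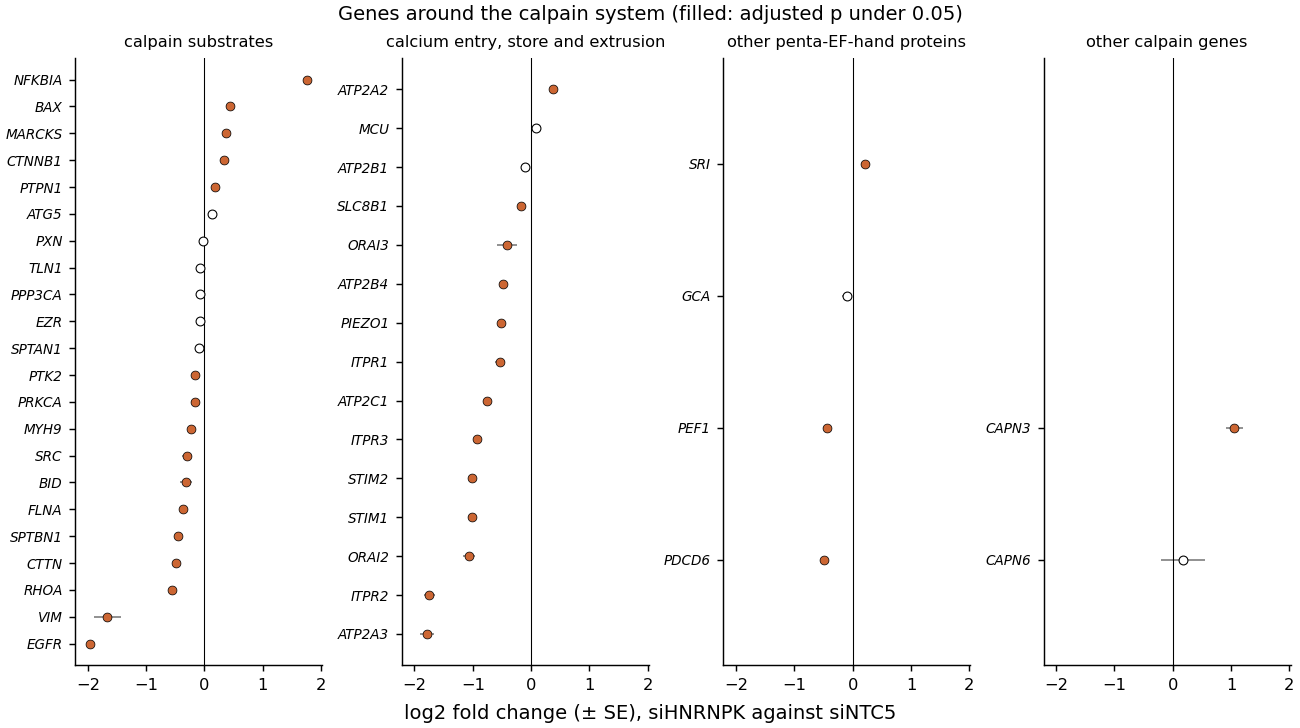
Log2 fold change (horizontal, ± SE from edgeR) of siHNRNPK against siNTC5 for the tested genes of 4 lists; filled points have an adjusted p under 0.05. Of 15 calcium genes 12 are filled to the left of 0, from ATP2A3 at -1.79 to SLC8B1 at -0.17, while the substrates run from EGFR at -1.96 to NFKBIA at 1.76.

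The penta-EF-hand proteins outside the calpains share the calcium-binding fold of the conventional subunits. Of 4 tested, PDCD6 (-0.48, SE 0.05) and PEF1 (-0.45, SE 0.06) fell and SRI rose (0.22, SE 0.07), and GCA did not pass. Thus 75% passed, against 71.5% of all genes. The CPM ranges of PEF1 and SRI overlapped between the groups. No gene of this list passed as higher with no kit term, in TruSeq libraries alone, or without siHNRNPK replicate 2 or 4. Of the 8 other calpain genes 2 could be tested. CAPN3, the calpain best known from skeletal muscle, was 3.02, 3.47, 2.40 and 2.85 CPM in siNTC5 and 6.06, 6.46, 5.73 and 6.43 CPM in siHNRNPK libraries. It rose without overlap, by 1.06 on the log2 scale (SE 0.15, adjusted p 4.07e-06, edgeR), against the direction of the members. The controls of CAPN3 differed by more than this. On the scale of all 10 libraries Scramble replicates 5 and 6 had 0.741 and 0.650 CPM, which was -2.16 against siNTC5 (log2, SE 0.22, adjusted p 1.08e-07, edgeR). CAPN6 did not pass (0.17, SE 0.38, adjusted p 0.703, edgeR).

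The tested genes on either side of CAPN2 went different ways. TP53BP2, which lies 3.88 kb beyond CAPN2, was 67.6 ± 3.46 and 62.1 ± 1.99 CPM (SD, n = 4 each; log2 -0.12, SE 0.06, adjusted p 0.0523, edgeR). Further on that side, GTF2IP20 did not pass (0.17, adjusted p 0.146, edgeR) and FBXO28 fell (-0.49, adjusted p 1.52e-07, edgeR). On the other side CAPN8 ends 35.9 kb before CAPN2. The nearest tested genes there were SUSD4 (0.39, adjusted p 0.181), TLR5 (-1.46, adjusted p 2.47e-05) and DISP1 (0.48, adjusted p 4.65e-04, all edgeR).

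Chromatin around these genes was read from the deposited domain lists, in GRCh38. Domains of lamin B1, H3K9me2 or H3K9me3 overlapped none of the 9 gene bodies, in control or knockdown lists. Over the 13481 tested genes with a RefSeq position, 4.06% touched a lamin B1 domain in the control and 3.46% in the knockdown list. For H3K9me3 the shares were 4.35% and 9.56%, and for H3K9me2, in the control list, 1.6%. The nearest H3K9me3 domain to CAPN10 was 31.7 kb away in the control and 5.90 kb away in the knockdown list, so that CAPN10 touched one in the knockdown list alone when 10 kb were added on each side. H3K27me3, the mark laid down by Polycomb complexes, covered all of CAPN8 and part of the RefSeq span of CAST. Of the same 13481 genes, 14.9% touched an H3K27me3 domain in the control and 12.9% in the knockdown list.

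CAPN8 lay within an H3K27me3 domain of 655 kb, chr1:223020001-223675000, with the same edges in both lists and an authors' score of 0.843 in the control and 0.768 in the knockdown list. CAPN2 lay outside it, 26.6 kb from its nearer edge, in both lists. The neighbours TLR5 and SUSD4 were fully inside. For CAST, whose RefSeq span is long, 36.9% of the span was covered in the control and 34.4% in the knockdown list. The domain lay at chr5:96315001-96615000 in the control list. Of the CAST promoter windows, the first lies before this domain, at 95961751-95962000, and the others lie beyond it, from 96661787 on. Transcripts from the later starts therefore lie outside the domain. Of the 13481 tested genes with a position, 9.84% had at least 50% of their body under H3K27me3 in the control list. In the knockdown list the share was 8.41%. Among 13506 positioned names that were not tested in the knockdown comparison, as CAPN8 was not, the shares were 35.5% and 33.4%. When domains under the median score of their list were left out, 2 of 4 overlaps stayed, both of CAST.

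**Figure D5:**
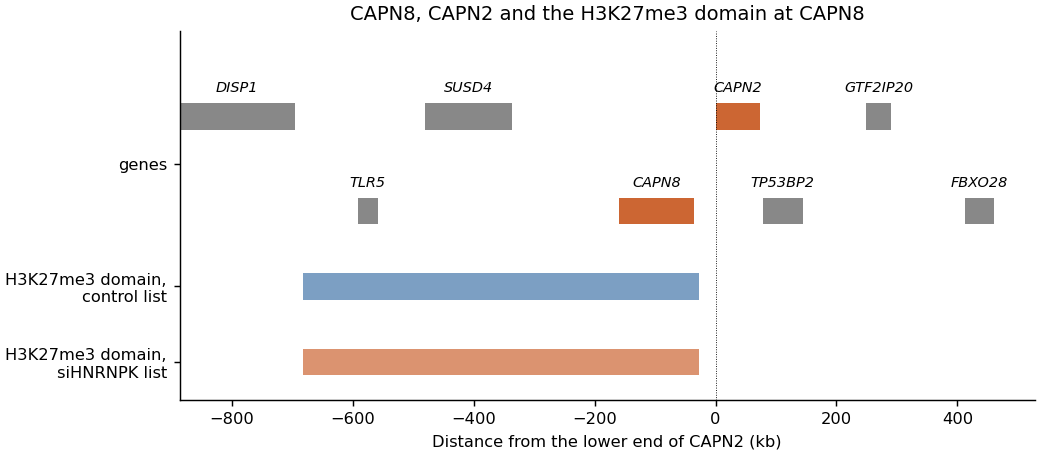
Genes near CAPN2 (CAPN2 and CAPN8 in orange, tested neighbours in grey) and the H3K27me3 domain at CAPN8 in the control and knockdown lists, by distance in kb from the lower end of CAPN2. The domain of 655 kb has the same edges in both lists and ends 26.6 kb before CAPN2.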

How the data were processed

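The authors deposited raw counts per gene symbol for 10 RNA libraries, as 1 table of 8 libraries and 2 tables of Scramble. The submitters' processing notes name STAR 2.7.1a, featureCounts, Subread 2.0.6 and hg38 for the 8 libraries, and hg19, hg38, STAR 2.7.1a, featureCounts and DESeq2 for Scramble. For ChIP they name bcl2fastq 2.20, fastp 0.23.2, Bowtie2 2.5.1, deepTools 3.1.3 and hg38, and each of the 7 deposited domain lists carries a score per domain. The annotation, the strand counted, the domain caller, the input handling and the pooling of replicates are not given in the sources used here.

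From the counts, edgeR 4.0.16 (R 4.3.3) ran filterByExpr by group, TMM scaling and its quasi-likelihood test, in a model of treatment and kit. Benjamini-Hochberg adjustment ran over all genes tested, at a threshold of 0.05, with no minimum fold change. Scramble was tested on 25527 names shared by the tables, of 28278 and 27135, and its CPM values use the scale of all 10 libraries. DESeq2 1.42.0 gave alternatives. Ratios used counts in a library, and likeness log2(CPM + 1). Tables and figures were made in Python 3.11.15.

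The members, the lists and the tests were chosen with earlier results of these data known. CAPN2 was to be tested in the interaction and against Scramble, but it is described there without a test, since those comparisons share libraries with its choice. The text names the members, HNRNPK, the genes ranked 2 and 3 by p-value, 3 tested neighbours on each side of CAPN2, the 5 genes most like CAPN2, and up to 4 passing genes of each list by size of change. The motifs were picked for this text. Libraries with the same replicate number share a kit, and their deviations from the group means correlated across genes: r was 0.152 in replicate 1, 0.531 in replicate 2, 0.442 in replicate 3 and 0.362 in replicate 4. With the kit means removed as well, r was 0.0744 for replicates 1 and 2 and 0.0157 for replicates 3 and 4. Genes are not independent replicates. The numbers were treated as pairs in an alternative.

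Counts of 13933 genes in 4 against 4 libraries were also simulated, with 200 genes changed, independent libraries and no kit effect. The knockdown test called 83 of 91 genes changed by a fold of 2, 106 of 106 changed by a fold of 4, and 12 of 13598 unchanged genes. In the real comparison 71.5% of genes passed and kits differed, so these figures do not give its error rate. Limits for genes with no counts are 3 counts a library and cover counting error alone. They equal 0.125 to 0.253 CPM in the 8 libraries.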

Additional observations from a re-analysis of the deposited data

How the results depend on the processing

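Of 511 alternative values of the members' log2 fold changes over 4 comparisons, 471 kept their direction and their side of the threshold (or, for CAPN2, which was not tested, stayed within the spread of its replicates), 10 lost the call, 13 gained one, 9 reversed and 8 moved. In the knockdown comparison the 5 members called besides CAPN2 kept direction and call in each alternative. The replicate block in place of kit gave 9872 genes called against 9968 and CAPN2 at -2.12, and it changed no call of a member or of a list count. For CAPN15, the Ligation libraries alone reversed the estimate to 0.048. The kit interaction of CAPN1, near 0, reversed to -0.0077 with upper-quartile normalisation and to -0.0023 with unscaled totals, and ran from -0.025 to 0.091 when 1 library was left out. CAPNS1 between Scramble and siNTC5 reversed to -0.048 and -0.15 with the same 2 scalings. For none of these was the cause tested. Unscaled totals, the fits of the lists and the exchange within kits were added after the data were seen.

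The number of genes called for the interaction was 18, and 71 with the DESeq2 Wald test, 239 with no filter on low counts and 6 to 598 with 1 library left out. The number of members called there besides CAPN2 was 0, and 1 with no filter (CAPN15) and 0 to 2 with 1 library left out. With Scramble libraries added as controls, 1 of 4 other penta-EF-hand genes passed in place of 3. With domains under the median score left out, 2 overlaps of members with domains were left of 4, and with 10 kb added on each side there were 5, the added one of CAPN10 with H3K9me3 in the knockdown list. In the knockdown comparison CAPN8 and 6 of the other calpain genes had too few counts for the filter and were not tested. Scramble differs in purification, depth and counting, and with 2 libraries its spread rests mostly on the other groups.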

Other observations

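Of the 6 other calpain genes too low to test, 4 lay in H3K27me3 domains. Among 13506 names that were not tested and have a RefSeq position, 35.5% had at least 50% of their body in such domains in the control and 33.4% in the knockdown list. CAPN9, CAPN13, CAPN14 and CAPNS2, and the tested CAPN6, had at least 50% of their body in H3K27me3 domains in both lists, as did CAPN8. CAPN13 and CAPN14, 85.6% and 85.3% of whose bodies lay in 1 lamin B1 domain of 490 kb in the control list (chr2:30735001-31225000), overlapped no lamin B1 domain in the knockdown list. Of the same 13506 names, 23.1% had at least 50% of their body in lamin B1 domains in the control and 15.9% in the knockdown list. The mean levels of CAPN13 were 0.340 CPM in siNTC5 and 0.457 CPM in siHNRNPK libraries. Those of CAPN14 were 0.0333 and 0.136 CPM, where 3 counts are worth 0.125 to 0.253 CPM, so no change was detectable at this depth.

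CAPN10-DT, a transcript named as divergent from CAPN10 and chosen after its values were seen, rose where CAPN10 did not pass. Its level was 3.14, 3.93, 3.20 and 2.85 CPM in siNTC5 and 8.90, 8.84, 6.74 and 9.06 CPM in siHNRNPK libraries, with no overlap. The log2 fold change was 1.35 (SE 0.14, adjusted p 1.15e-07, edgeR).

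CAPN12 had no count in 7 of the 8 libraries and 1 in the other, and 182 and 127 counts in the Scramble tables. It shares 1398 bases with ACTN4, a gene of the actin cytoskeleton, in RefSeq. ACTN4 had 0 to 5 counts in the 8 libraries and 1096 and 1051 CPM in the Scramble tables. In all, 70 names were under 1 CPM in each of the 8 libraries and at or over 100 CPM in both Scramble libraries, and 61.4% of them overlap another RefSeq gene, against 58.4% of the names at or over 100 CPM in all 10. The reverse was true of 1 name. None of the 9 members had such a gap, and why the tables differ was not tested.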
